A study of Mus musculus with 20 samples.

Results

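Pdgfra-positive cells were examined 24h after Gata4 was switched on in mouse ES cells. Pdgfra encodes PDGFRα, a receptor tyrosine kinase for PDGF ligands. The cells were chosen by a measured value. A cell of the 2 libraries titled ES, 24h had to hold at least 5000 UMIs (molecules counted after removal of PCR copies), and it was called positive when at least 1 of them was from PDGFRA. Of 7713 such cells, 2603 were positive and 5110 negative. The series holds 134279 cells in 20 libraries, 10296 of them in the 24h libraries. The first replicate gave 1683 positive and 3178 negative cells, and the second gave 920 and 1932.

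The study followed conversion in both directions between ES cells and XEN cells, which are cells of the extraembryonic endoderm, by scRNA-seq. The libraries used here are of the iGata4-Gata6-Venus ES line, which carries a doxycycline-inducible Gata4 (Col1A1 TetO-Gata4/+ in the labels, named with mCherry in the study's methods), the transactivator (R26 M2rtTA/+) and 1 Gata6 allele marked with Venus (Gata6 H2B-Venus/+), so that all groups share these alleles. ES is the line before doxycycline, 9h, 24h and 48h are times in doxycycline with serum and LIF, and iXEN is the converted line after doxycycline had been taken away again. Each group has 2 libraries of 1 line, which the study calls technical duplicates. The names of the 24h pair, and of the 48h pair, carry different sequencing project numbers, and whether a pair comes from 1 culture is not given in the sources used here. The study corrected a batch effect among these time points, a step that the deposited whole counts do not carry. The p-values of positive against negative cells measure only how that difference varies between duplicate libraries, pooled over 9h, 24h and 48h. Those of iXEN against ES measure only the spread between duplicates. The 9h cells were sorted on PDGFRα and Venus and the fractions pooled again in about equal parts, whereas the 24h and 48h cells were not sorted. UMIs of Gata4 cannot be assigned to the transgene or to the endogenous gene. The work that the study cites for the Venus allele of Gata6 names it both a reporter and a loss-of-function allele.

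In the early embryo, PDGFRα marks the primitive endoderm, the layer that forms the extraembryonic endoderm and separates from the Nanog-positive epiblast. Gata6, Gata4, Sox17 and Sox7 are transcription factors of that lineage, and forced expression of Gata4 or Gata6 is known to turn ES cells into endoderm. Cells of the lineage are also known for secreting a thick basement membrane of laminin and type IV collagen.

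Promoters of genes the results turn on are shown as windows of 300 bases, from 250 before to 50 after the start of transcription, in RefSeq sequence on GRCm38.p6. Pdgfra is the gene by which the cells were chosen, Col4a2 is 1 gene of a head-to-head pair that was higher in positive cells, and Nanog had the lowest log2 fold change among the listed naive pluripotency genes. All are read on the plus strand: Pdgfra at chr5:75152001-75152300, Col4a2 at chr8:11312555-11312854 and Nanog at chr6:122707315-122707614. Capitals mark a GATA motif in Nanog (GATA preceded by A or T and followed by A or G, on either strand, of which Pdgfra has none), and in Col4a2 the 78 bases that its window shares with that of Col4a1.
Pdgfra: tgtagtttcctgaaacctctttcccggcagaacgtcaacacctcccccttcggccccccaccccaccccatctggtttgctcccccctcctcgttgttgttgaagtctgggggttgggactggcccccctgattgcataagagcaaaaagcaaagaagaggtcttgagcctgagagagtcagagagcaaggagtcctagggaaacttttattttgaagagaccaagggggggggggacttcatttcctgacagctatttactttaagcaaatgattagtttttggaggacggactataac
Col4a2: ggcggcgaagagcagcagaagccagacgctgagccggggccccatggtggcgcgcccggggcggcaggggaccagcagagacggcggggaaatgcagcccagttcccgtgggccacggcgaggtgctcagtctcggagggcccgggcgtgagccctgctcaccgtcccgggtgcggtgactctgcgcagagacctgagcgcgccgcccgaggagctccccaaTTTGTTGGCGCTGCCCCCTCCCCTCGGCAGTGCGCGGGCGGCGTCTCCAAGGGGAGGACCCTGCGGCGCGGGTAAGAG
Nanog: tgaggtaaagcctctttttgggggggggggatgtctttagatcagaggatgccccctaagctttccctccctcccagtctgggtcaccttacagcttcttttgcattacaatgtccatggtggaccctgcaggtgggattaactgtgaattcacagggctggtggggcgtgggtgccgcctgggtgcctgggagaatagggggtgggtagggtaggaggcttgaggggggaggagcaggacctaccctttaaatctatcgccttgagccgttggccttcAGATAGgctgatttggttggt

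The GATA letters were found in 9778 of 32851 windows of this length (29.8%). The Nanog window held AGATAG once, 30 bases after the start, and the other Nanog window in RefSeq held none. Counted by gene symbol, 8930 of 27025 held them. Of the genes with a window, 0 of 11 basement membrane genes, 6 of 13 naive pluripotency genes and 2 of 2 primitive endoderm factors held the letters. A match is a string of letters and not a bound site, and a missing match says only that the string is not in this window. The starts of Col4a1 and Col4a2 lie 21 bases apart on opposite strands. Windows of Gata6, Gata4, Sox17, Foxq1 and Lama1 were not used here.

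The share of positive cells, by which they were chosen, is given as a description. It was 34.6% (exact 95% binomial interval 33.3% to 36.0%) in the first 24h library and 32.3% (30.5% to 34.0%) in the second. In ES cells, before induction, it was 0.0823% and 0.0571%, with median depths of 13426.5 and 13524 UMIs against 11030 and 18268.5 UMIs at 24h. It was 4.23% and 3.72% in the 9h libraries, 47.2% and 65.5% in the 48h libraries, and 53.2% and 61.8% in the iXEN libraries. The 9h libraries are pools of sorted fractions, so their share is not that of the culture. The intervals cover counting error only. ES libraries held Pdgfra at 0.0547 and 0.0475 CPM over all cells, against 42.2 and 22.9 CPM at 24h, so their share does not give the share that free RNA would give at 24h, which was not measured.

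**Figure D1:**
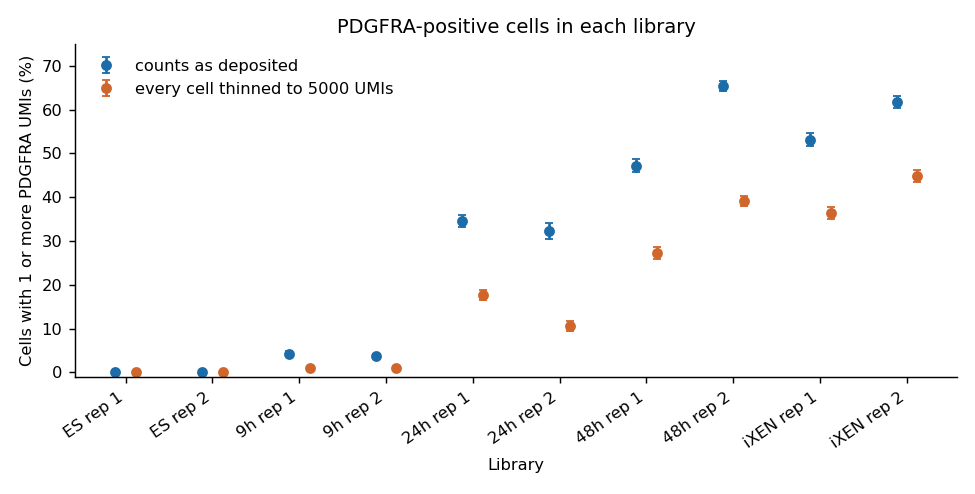
The percentage of cells with at least 1 PDGFRA UMI is plotted for 10 libraries among cells of at least 5000 UMIs, as deposited (blue) and with every cell thinned to 5000 UMIs (orange), and the bars are exact 95% binomial intervals. The 24h libraries lie above the 9h and below the 48h libraries on both scales, and they lie farther apart after thinning (17.6% and 10.6%) than before it (34.6% and 32.3%). The 9h libraries are pools of sorted fractions.

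Depth enters this share, since a deeper cell has more chances to show a PDGFRA UMI. Positive cells had median depths of 12880 and 22223 UMIs in the 24h libraries, and negative cells had 10178.5 and 16742 UMIs. After each cell was thinned to 5000 UMIs, 17.6% and 10.6% were positive, so that at equal depth the first library had the larger share. Cells were assigned to a class by the deposited count, and only then thinned to 5000 UMIs and summed per library and class. The class itself thus still depended on depth. The sums held 8415000 and 4600000 UMIs for positive cells and 15890000 and 9660000 UMIs for negative cells.

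The boundary between the classes is a single molecule. Of the positive cells, 1074 in the first and 573 in the second library held exactly 1 PDGFRA UMI, 381 and 221 held 2, and the highest counts were 7 and 10. In cells less than 1000 UMIs above the limit on depth 16.2% and 16.4% were positive, and in cells up to 1000 UMIs below it 14.6% and 20.8%. In the thinned sums of positive cells PDGFRA was at 117 and 68.5 CPM (UMIs relative to the library total, after scaling the libraries to each other), against 162 and 161 CPM in positive cells at 48h. Every one of these cells was chosen for at least 1 PDGFRA UMI before thinning. The levels thus depend on that choice and on depth, and are given as a description.

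The duplicates differed in their endoderm genes. Over all cells of at least 5000 UMIs, Gata6 was at 67.7 CPM in the first and 27.0 CPM in the second 24h library, Foxq1 at 133 and 47.9 CPM, and Sox17 at 16.6 and 3.91 CPM. The classes were compared within each library. Without the library in the model, edgeR called 0 genes (210 at an unadjusted p under 0.05). The libraries shared 38 cell barcodes, 21 of them in cells of at least 5000 UMIs, and shared between 13 and 98 with any other library of the series. Scrublet marked at most 0.0518% of cells of a library as doublets, so it has not worked here, and no doublets were removed.

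Positive cells at 24h held more RNA of 7 of 8 primitive endoderm factors and of 4 of 16 basement membrane genes, and less RNA of 5 of 20 naive pluripotency genes, than negative cells of the same libraries. edgeR's quasi-likelihood test, with Benjamini-Hochberg adjustment over 12727 genes and PDGFRA left out, called 239 genes (1.88% of those tested), 91 of them higher in positive cells (0.715%) and 148 lower (1.16%). A gene was called when its adjusted p was under 0.05, its log2 fold change was 0.5 or larger in size, and both libraries had the same sign. Without the fold limit and the rule of signs, 667 of the 12727 genes had an adjusted p under 0.05 by edgeR. At an unadjusted p under 0.05 there were 2069. Counts of either kind given below for a list are to be read against these. When the limit was set at 1, 7 genes were higher (0.055%) and 51 lower (0.401%). Of the 239 called genes, 115 had a mean of at least 10 CPM over the sums of the 24h libraries, and the rest were lower. With the class taken from the thinned count, so that every cell had the same depth, 98 genes were called, 76 of them among the 239. In that setting 857 and 302 cells were positive and 4004 and 2550 negative. Cells that lost their PDGFRA UMIs in thinning counted as negative, so a lost call cannot be put down to depth alone. With classes matched on depth 150 genes were called, 129 of them among the 239, and DESeq2 called 71. When cells were thinned with another random seed, 236 genes were called, 147 of them among the 239.

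**Figure D2:**
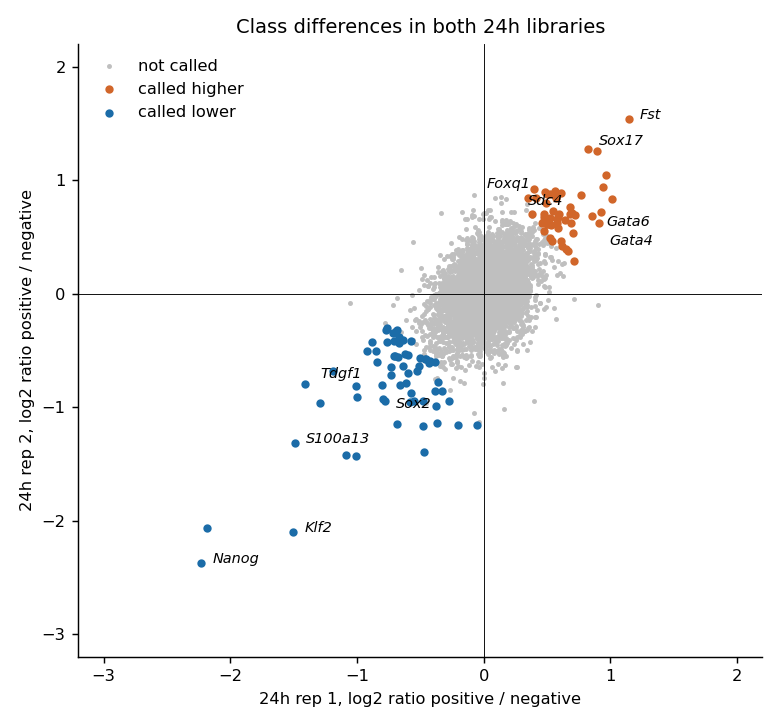
Each point is 1 of 6574 genes with a mean of at least 10 CPM, placed by its log2 ratio of positive to negative cells in the first (x axis) and second (y axis) 24h library, with genes called higher in orange and called lower in blue. Nanog and Klf2 lie in the lower left, and Fst, Sox17, Gata6 and Gata4 in the upper right. Of the 239 called genes, 115 reach this mean and are drawn.

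Of the 8 primitive endoderm transcription factors, all tested, 7 were higher in positive cells and 0 lower. Their median log2 fold change was 0.81, against -0.0050 over all genes tested. The list holds 3 genes proposed as markers of these cells, Gata6, Sox17 and Foxq1, and was chosen with earlier results of the data known, so its count is no independent support. Gata6, a GATA factor at the head of the primitive endoderm programme, was at 91.9 and 35.7 CPM in positive cells and at 50.9 and 22.2 CPM in negative cells (log2 fold change 0.81, SE 0.08, adjusted p = 1.43e-20 by edgeR). Gata4, the induced factor, was at 64.8 and 35.5 CPM in positive cells and at 34.6 and 23.1 CPM in negative cells (0.82, SE 0.09, adjusted p = 5.47e-18 by edgeR). Positive cells were above negative cells within each library, but for Gata6 positive cells of the second library lay below negative cells of the first.

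Sox17, an endodermal SOX factor, was at 22.4 and 6.36 CPM in positive cells and at 12.6 and 2.62 CPM in negative cells (log2 fold change 0.89, SE 0.15). Foxq1, a forkhead factor, was at 157 and 68.5 CPM in positive cells and at 113 and 36.8 CPM in negative cells (0.60, SE 0.06). Sox7 (0.51, SE 0.12) and Foxa2 (0.88, SE 0.21), both factors of endoderm, were higher as well, in both libraries, although Foxa2 had 9 UMIs in positive and 7 in negative cells of the second. Both calls were lost with classes matched on depth (0.46 and 0.69). Hnf4a, a factor of later endoderm, was below 1 CPM in every sum. The markers Gata6, Sox17 and Foxq1 were thus higher in positive cells, and each was also counted in negative cells. The number of factors called was 5 with the class from the thinned count, where Foxq1 was not called, 5 with classes matched on depth, 4 without the first library, where Sox7 (0.48) and Foxa2 (1.39) were among those not called and Foxq1 was at 0.92, 6 without the second, where Foxq1 was not called (0.48), and 4 with DESeq2.

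**Figure D3:**
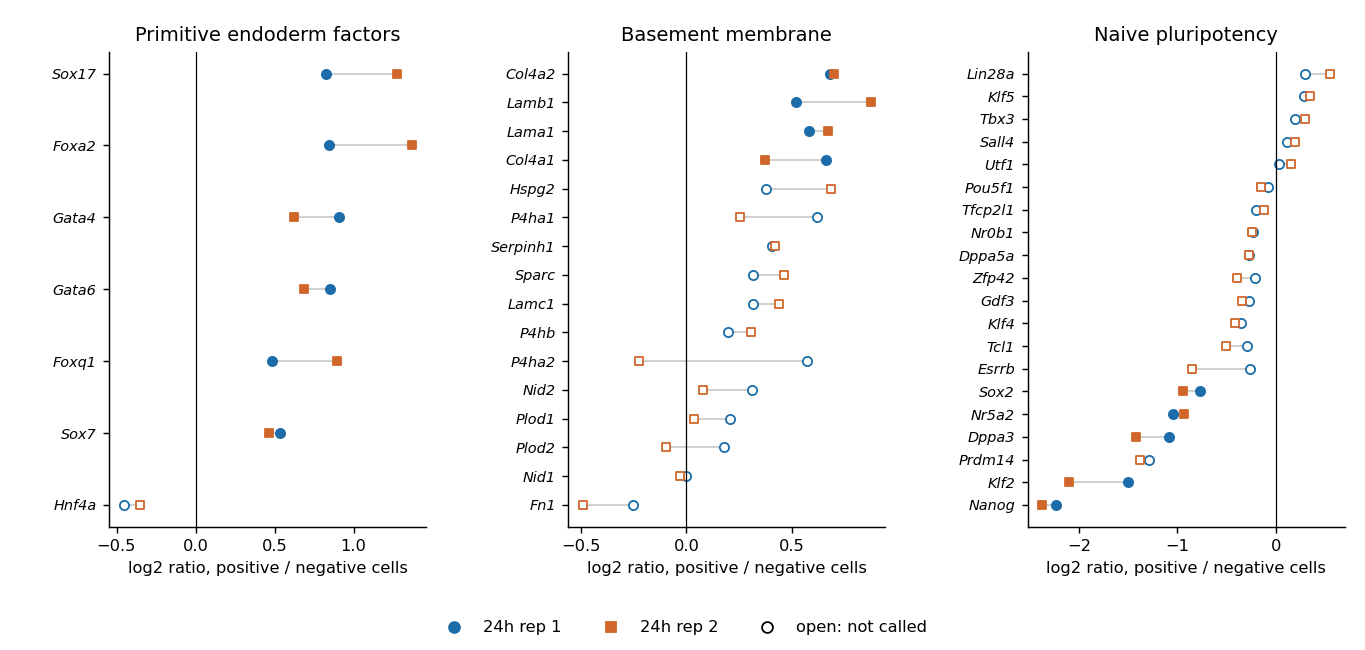
The log2 ratio of positive to negative cells is shown for the tested genes of 3 lists that are reported here in the first (blue circle) and second (orange square) 24h library, filled where the gene was called. Among the primitive endoderm factors Hnf4a alone lies left of 0, and Nanog and Klf2 lie lowest among the naive pluripotency genes.

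Of 16 tested basement membrane genes, 4 were higher and 0 lower, and 11 had an adjusted p under 0.05 in edgeR in either direction, with a median log2 fold change of 0.38. Lama1, the laminin α1 chain, was at 104 and 68.1 CPM in positive cells and at 69.2 and 42.7 CPM in negative cells (log2 fold change 0.62, SE 0.07). Lamb1, the laminin β1 chain, was at 102 and 58.3 CPM in positive cells and at 71.3 and 31.7 CPM in negative cells (0.63, SE 0.07). For both, positive cells of the second library were again below negative cells of the first.

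Col4a2, a chain of type IV collagen, was at 85.3 and 50.9 CPM in positive cells and at 53.2 and 31.3 CPM in negative cells (log2 fold change 0.69, SE 0.07). Col4a1, the other chain of the head-to-head pair, was at 90.7 and 42.3 CPM in positive cells and at 57.2 and 32.6 CPM in negative cells (0.58, SE 0.07). The call of Col4a1 was lost without the first library (0.39), with the class from the thinned count and with classes matched on depth (0.47), and that of Lama1 with classes matched on depth (0.49). Other genes of the matrix had log2 fold changes under the limit of 0.5: Lamc1, the laminin γ1 chain, 0.37 (SE 0.05), Sparc, a collagen-binding protein, 0.39 (SE 0.04), and Serpinh1, the collagen chaperone, 0.41 (SE 0.05). Fn1, fibronectin, had -0.36 (SE 0.07).

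Genes of endocytosis and the surface of primitive endoderm gave 1 higher and 1 lower of 7 tested. Dab2, an adaptor of endocytosis, was at 22.7 and 9.44 CPM in positive cells and at 20.7 and 5.24 CPM in negative cells (log2 fold change 0.26, SE 0.12, adjusted p = 0.270 by edgeR). Over whole libraries its level was 22.2 and 6.72 CPM at 24h and 224 and 263 CPM at 48h. Lrp2, the endocytic receptor megalin, had a log2 fold change of 0.03 (SE 0.21). Pth1r, a parathyroid hormone receptor of parietal endoderm, was higher (0.60, SE 0.19), and its call was lost without the first library (0.71) and without the second (0.58). Cldn6, an epithelial claudin, was lower (-0.96, SE 0.18). DESeq2 called 0 genes of this list.

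Of 9 tested genes of parietal endoderm, the migratory derivative of primitive endoderm, 5 were higher and 1 lower. Of the 5, Lamb1, Pth1r, Fst and Snai1 also stand in other lists used here. Fst, the secreted activin inhibitor follistatin, was at 36.6 and 12.3 CPM in positive cells and at 16.6 and 4.23 CPM in negative cells (log2 fold change 1.21, SE 0.12, adjusted p = 2.60e-20 by edgeR). Srgn, a proteoglycan core protein, was at 17.1 and 9.64 CPM in positive cells and at 8.92 and 5.04 CPM in negative cells (0.94, SE 0.14), and Krt19, a keratin, was lower (-1.01, SE 0.33). Krt19 had 1 UMI in positive cells of the first library, and its value was -0.60 without that library, where the call was lost, and -3.57 without the second. The call of Srgn was lost without the first library too (0.96). Without the first library 2 were higher and 0 lower. Of visceral endoderm, the other derivative, edgeR called 0 of 5 tested genes (1 at an unadjusted p under 0.05, and 0 by DESeq2). Its defining genes Ttr and Afp had 0 UMIs in positive cells of both libraries and 1 UMI each in negative cells.

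Of 20 naive pluripotency genes tested, 0 were higher and 5 lower, and 15 had an adjusted p under 0.05 in edgeR in either direction. Nanog, a factor that opposes the endoderm programme, was at 4.36 and 3.49 CPM in positive cells and at 20.7 and 18.5 CPM in negative cells (log2 fold change -2.30, SE 0.18, adjusted p = 2.83e-34 by edgeR). Klf2, a naive factor, was at 7.68 and 3.08 CPM in positive cells and at 21.9 and 13.6 CPM in negative cells (-1.66, SE 0.17). For both genes all positive sums were below all negative sums.

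Sox2, the partner of OCT4, was at 40.03 and 45.1 CPM in positive cells and at 68.6 and 86.96 CPM in negative cells (log2 fold change -0.85, SE 0.08). Dppa3, a naive and germline marker (-1.23, SE 0.17), and Nr5a2, an orphan nuclear receptor (-1.01, SE 0.23), were the other 2 genes lower in positive cells. Pou5f1, which encodes OCT4, was at 536 and 574 CPM in positive cells and at 569 and 638 CPM in negative cells and was not called (-0.12, SE 0.04, adjusted p = 0.0668 by edgeR). Klf5 (0.31, SE 0.05) and Lin28a (0.40, SE 0.06) had positive values under the fold limit. The count of lower genes was 5 with the class from the thinned count, 4 with classes matched on depth, 5 without either library and 3 with DESeq2, and without the first library 1 gene was higher. These are counts and not the same genes, since the call of Nr5a2 was lost with the class from the thinned count (-0.54), with classes matched on depth (-0.83) and without the first library (-0.93).

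Of 6 tested genes of formative and primed pluripotency, Otx2, an epiblast factor, was lower (log2 fold change -1.54, SE 0.48), a call that was lost without the first library (-1.11), without the second (-1.74) and with the class from the thinned count (-2.12). Dnmt3b, a de novo DNA methyltransferase, was at 132 and 87.2 CPM in positive cells and at 105 and 52.2 CPM in negative cells (0.48, SE 0.07), and its partner Dnmt3a was at 113 and 76.7 CPM in positive cells and at 85.4 and 55.6 CPM in negative cells (0.42, SE 0.07). Both had an adjusted p under 0.05 by edgeR and values under the fold limit. The list's summed level, most of it from Dnmt3a and Dnmt3b, was 253 and 169.9 CPM in positive cells and 206 and 115 CPM in negative cells. Of the 6 tested genes these 2 alone had a positive log2 fold change, and the median over the 6 was -0.83. With 1 lower and 0 higher in the reported test, DESeq2, cells with 2 or more Pdgfra UMIs and the test without the first library each gave 0 lower and 1 higher. Fgf5, a marker of primed cells that was too low to test, had 30 UMIs in negative cells of the first library and 0 in the other 3 sums.

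Cells were also split by their number of PDGFRA UMIs, as a description with no test. In the first library Nanog was at 21.1, 5.21, 4.20 and 1.75 CPM (of thinned UMIs, without scaling between libraries) in cells with 0, 1, 2 and 3 or more PDGFRA UMIs, and in the second at 19.05, 3.84, 4.52 and 1.59. The largest step was between 0 and 1 UMI. Klf2 had the same step, with 22.4, 8.38, 7.35 and 7.02 CPM in the first library and 13.98, 3.84, 2.71 and 1.59 in the second.

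Foxq1 was at 115, 154, 176 and 182 CPM over the same groups of the first library and at 37.8, 65.6, 75.1 and 100.0 in the second, higher in each next group. Gata6 was at 52.1, 88.1, 88.7 and 139 in the first and at 22.8, 34.9, 47.1 and 34.9 in the second library, where the last group held 22 UMIs of Gata6. Cells with more PDGFRA UMIs were also deeper, with medians of 10178.5, 12091, 13584 and 16550.5 UMIs in the first library and 16742, 21075, 23022 and 27859 in the second. The part of depth in these steps was not tested.

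**Figure D4:**
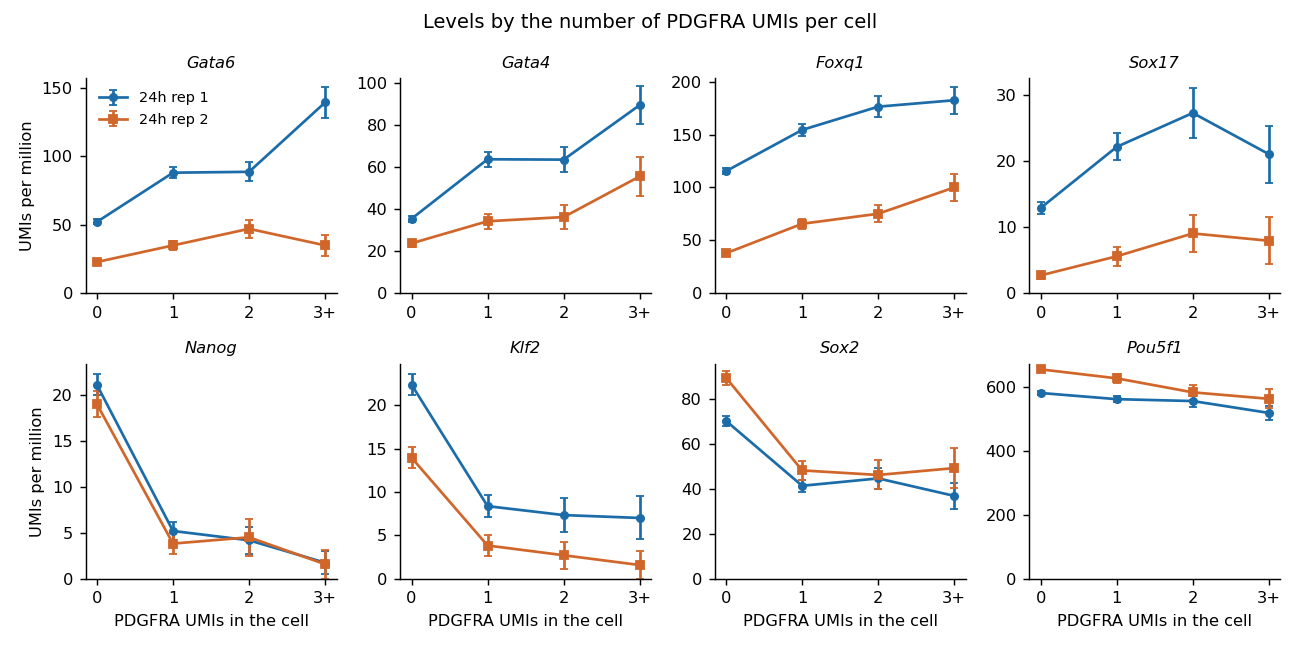
Levels of 8 genes relative to all UMIs after thinning (y axis) are drawn for cells with 0, 1, 2 and 3 or more PDGFRA UMIs (x axis) in the first (blue) and second (orange) 24h library, and the bars are the square root of the count, for counting error only. Foxq1 is higher in each next group of both libraries, while Nanog, Klf2 and Sox2 drop between 0 and 1 PDGFRA UMI.

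Of 19 tested genes of FGF and ERK signalling, 3 were higher and 1 lower. Fgf4, the ligand that ES and epiblast cells secrete, was at 1.26 and 1.64 CPM in positive cells and at 4.68 and 6.45 CPM in negative cells (log2 fold change -1.92, SE 0.32). Fgfr2, a receptor associated with primitive endoderm, was at 18.01 and 6.77 CPM in positive cells and at 11.6 and 4.33 CPM in negative cells (0.64, SE 0.16). Dusp4, a phosphatase of ERK (0.87, SE 0.13), and Spry4, a feedback inhibitor (0.60, SE 0.13), were higher. Without the first library the calls of Fgfr2 (0.66), Dusp4 (0.74) and Spry4 (0.74) were lost although the values were of similar size or larger. Those of Fgfr2 (0.47) and Spry4 (0.41) were also lost with the class from the thinned count, and DESeq2 called 0 genes of the list.

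Of the PDGF list, edgeR called 0 of 9 tested genes besides Pdgfra (4 at an unadjusted and 2 at an adjusted p under 0.05, and 0 by DESeq2). Pdgfa, a ligand of the receptor, was at 50.01 and 62.4 CPM in positive cells and at 58.1 and 71.9 CPM in negative cells (log2 fold change -0.21, SE 0.08, adjusted p = 0.0810 by edgeR). Pdgfrb, the sister receptor, was at 1.38 and 1.64 CPM in positive cells and at 1.05 and 2.92 CPM in negative cells. The classes lay in opposite order in the 2 libraries. Of the genes around Pdgfra on chromosome 5, edgeR called 0 of 8 tested (1 at an unadjusted and 1 at an adjusted p under 0.05, and 0 by DESeq2). Of these 8, 7 had a positive log2 fold change, and the median was 0.07. The neighbouring receptor genes Kit and Kdr were below 2 CPM in every sum.

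Of 15 tested genes of Nodal, BMP and TGF-beta signalling, 2 were higher and 2 lower. Tdgf1, the Nodal co-receptor Cripto, was at 52.6 and 86.6 CPM in positive cells and at 91.99 and 152 CPM in negative cells (log2 fold change -0.81, SE 0.07). Of the inhibitors of differentiation, targets of BMP, Id3 was higher (0.56, SE 0.07) and Id2 lower (-0.70, SE 0.09), and Fst was the other higher gene. The calls of Tdgf1 (-0.49) and Id3 (0.47) were lost with the class from the thinned count. Id3 was at 0.86 without the first library and at 0.35, not called, without the second. Of 7 tested Wnt genes, Axin2 (0.53, SE 0.13) and Dkk1 (0.59, SE 0.14), both targets of the pathway, were higher, and both calls were lost without either library. Without the first library Axin2 was at 0.64 and Dkk1 at 0.89, and without the second at 0.50 and 0.50. DESeq2 called 0 genes of the Wnt list. Of the retinoid genes edgeR called 0 of 13 tested (4 at an unadjusted p under 0.05, and 0 by DESeq2).

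Of 16 tested genes of adhesion and polarity, 1 was higher and 4 lower. DESeq2 called 0 higher and 1 lower. Cldn4, a claudin of tight junctions, was at 1.72 and 5.75 CPM in positive cells and at 5.78 and 14.7 CPM in negative cells (log2 fold change -1.50, SE 0.23). Cldn7, another claudin, was at 3.10 and 4.31 CPM in positive cells and at 9.54 and 10.98 CPM in negative cells (-1.50, SE 0.22). Cldn6 and Krt18, an epithelial keratin (-0.78, SE 0.14), were the other lower genes, and Krt18 was at -0.49, not called, without the first library. Cdh1, E-cadherin, was at 46.6 and 55.8 CPM in positive cells and at 47.9 and 48.3 CPM in negative cells (0.07, SE 0.08). Snai1, a repressor of E-cadherin, was higher (0.60, SE 0.16), a call lost without the first library (0.82), without the second (0.49) and with classes matched on depth (0.57).

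Outside the lists, Sdc4, a heparan sulfate proteoglycan, was at 307 and 327 CPM in positive cells and at 187 and 203 CPM in negative cells (log2 fold change 0.70, SE 0.05, adjusted p = 2.24e-43 by edgeR), and all positive sums were above all negative sums. Runx1, a runt transcription factor (0.70, SE 0.08), Glul, glutamine synthetase (0.58, SE 0.05), and F2r, a thrombin receptor (0.61, SE 0.08), were higher, as were Sapcd1 (0.70, SE 0.08) and Glipr2 (0.63, SE 0.07). Spp1, osteopontin (-0.53, SE 0.06), Ifitm3, an interferon-induced membrane protein (-0.64, SE 0.08), S100a6, a calcium-binding protein (-0.57, SE 0.08), and Myo10, an unconventional myosin (-0.68, SE 0.09), were lower, as were the LIM proteins Crip1 (-0.51, SE 0.07) and Crip2 (-0.64, SE 0.08). Without the first library S100a6 was at -0.32 and not called, and without the second the call of Crip1 was lost (-0.46). With the class from the thinned count the calls of Glul (0.41), Glipr2 (0.46), Spp1 (-0.36), Myo10 (-0.43), Crip1 (-0.47) and Crip2 (-0.41) were lost.

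Markers of other cell types were low in both classes. The 10 fibroblast markers summed to 5.05 and 3.28 CPM in positive cells against 3.38 and 2.72 CPM in negative cells, with Lum at 0 UMIs, and edgeR called 0 of 3 tested (0 at an unadjusted p under 0.05, and 0 by DESeq2). The 8 mesendoderm markers summed to 5.16 and 1.85 CPM in positive cells against 5.78 and 4.13 CPM, the 8 trophectoderm markers to 13.9 and 16.2 CPM in positive cells against 15.2 and 14.1 CPM and the 6 neural markers to 13.2 and 9.85 CPM in positive cells against 15.3 and 16.6 CPM in negative cells. Tfap2c of the trophectoderm list (-1.35, SE 0.29) and Tubb3 of the neural list (-0.70, SE 0.17) were lower in positive cells. DESeq2 called 0 genes of either list. The call of Tfap2c was lost without the first library (-1.44). Tubb3 was at -1.30 without the first library and at -0.37, not called, without the second. The 7 markers of 2-cell-like cells in the files had 0 UMIs. The part of such cells in the results was not tested.

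Of the cell cycle genes edgeR called 0 of 40 for S phase (10 at an unadjusted p under 0.05), with a median log2 fold change of -0.08, and 0 of 50 for G2 and M phase (10 at an unadjusted p under 0.05), with a median of 0.06. Of immediate early and heat shock genes it called 0 of 12 (3 at an unadjusted p under 0.05), with a median of -0.14. DESeq2 called 0 in each of these lists. A positive log2 fold change was found for 7 of the 40, 35 of the 50 and 2 of the 12 genes, against 48.9% of all genes tested. An adjusted p under 0.05 by edgeR was found for 2, 5 and 1 of them. The part of the cell cycle in the results was not tested. The mitochondrial share of UMIs was 2.06% and 2.00% in positive cells and 2.10% and 2.05% in negative cells.

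To set the class difference beside the start and end of the conversion, iXEN libraries were compared with ES libraries. The study left a cluster of spontaneously differentiating cells out of its ES samples. Here all deposited ES cells of at least 5000 UMIs were used. edgeR called 3228 of 13787 genes (23.4%) at a log2 fold change of at least 2, 1803 higher in iXEN (13.1%) and 1425 lower (10.3%). Of the genes higher in iXEN and tested at 24h, 52 were higher in positive cells (3.99%) and 20 lower (1.54%), with a median log2 fold change of 0.07. Of the 1191 lower in iXEN and tested at 24h, 4 were higher (0.336%) and 71 lower (5.96%), with a median of -0.17. Among the 10233 genes of neither list 35 were higher and 57 lower, with a median of -0.0015. With the class from the thinned count, 25 were higher and 8 lower of the first list, and 3 and 28 of the second.

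The same comparison was made at 48h, in libraries that the choice of the 24h cells did not use. Their cells were split by the same rule and stand in the same fit. Positive cells were deeper there too, with medians of 11173 and 12586 UMIs against 8871 and 9988.5 in negative cells. The part of depth was not tested. At 48h, 164 genes were called (1.29%), 28 higher in positive cells (0.22%) and 136 lower (1.07%). Of the 91 genes higher at 24h, 80 had the same sign at 48h and 2 were called higher, and of the 148 lower genes 129 had the same sign and 45 were called lower. The median log2 fold changes of these sets at 48h were 0.26 and -0.45, against -0.0028 over all genes tested. At 48h the log2 fold change was -1.75 for Nanog (SE 0.20) and for Klf2 -1.43 (SE 0.16), both called lower. Gata6 had 0.29 (SE 0.06) and Gata4 0.45 (SE 0.06), under the fold limit.

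The difference between the times was itself tested, as an interaction of class and time. It was called for 48 genes (0.377%), 33 with a higher (0.259%) and 15 with a lower value (0.118%) at 24h. A call of an interaction needed an adjusted p under 0.05 and a difference of 0.5 or larger in size. The rule of the same sign in both libraries was not applied to interactions. Gata6 was among the 33, with a difference of 0.51 on the log2 scale (SE 0.10, adjusted p = 2.23e-04 by edgeR), whereas Gata4 was not called (0.37, SE 0.11, adjusted p = 0.0715 by edgeR). The log2 fold change of Sdc4 was 0.70 at 24h and 0.02 at 48h, and that of Fst was 1.21 and 0.49. Dusp4 had 0.87 and -0.16, and Fgfr2 had 0.64 and -0.14.

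Tdgf1 had -0.81 at 24h and -1.78 at 48h. S100a13, a calcium-binding protein, had -1.43 and -0.62, and Apela, a peptide hormone of pluripotent cells, had -0.80 and 0.24. After thinning, 27.3% and 39.2% of cells were positive at 48h and 17.6% and 10.6% at 24h, and the part of this in the difference between the times was not tested. The call for Fst was lost without the first 24h library, where the value was larger (1.07), and with classes matched on depth (0.50), and that for S100a13 with the class from the thinned count. DESeq2 called the interaction for 11 genes.

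**Figure D5:**
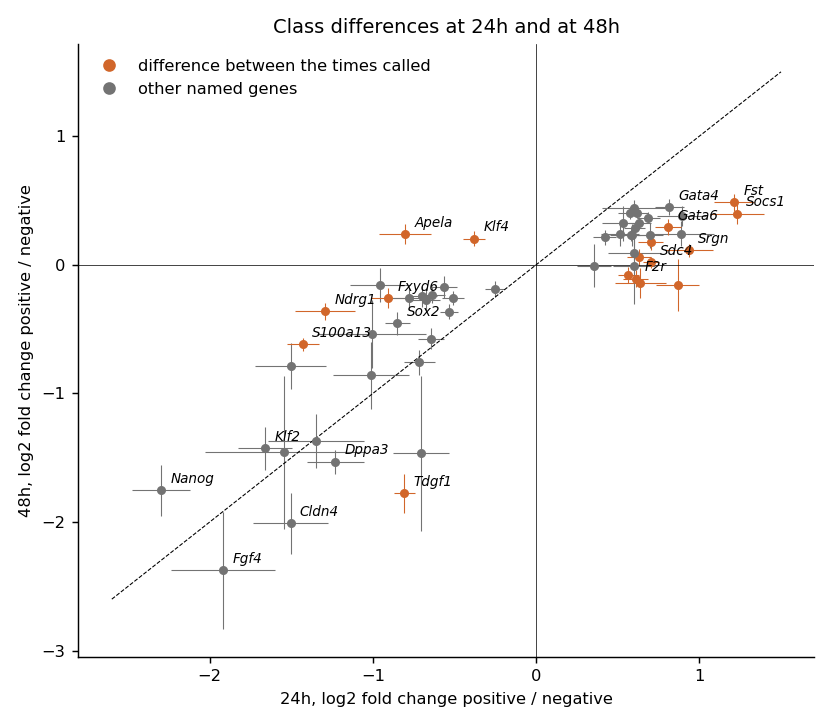
The log2 fold change of positive against negative cells is plotted for the named genes at 24h (x axis) and at 48h (y axis), with standard errors as bars and a dashed line at equal values, and genes whose difference between the times was called are in orange. Tdgf1 lies below the line, and Apela and Klf4 lie above 0 at 48h and below 0 at 24h.

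At 9h, 175 and 183 cells were positive, with 38 and 51 PDGFRA UMIs after thinning, and 66 genes were called (0.519%), 4 higher (0.0314%) and 62 lower (0.487%). The median log2 fold change over all genes was -0.15, against which these values are to be read. Of the 91 genes higher at 24h, 51 had the same sign at 9h and 2 were called higher, and of the 148 lower genes 119 had the same sign and 9 were called lower. The medians of these sets at 9h were 0.14 and -0.29. With the median over all genes below 0, a negative sign was the more common one at 9h for any gene tested. Foxq1 was among the 4, with 1.67 (SE 0.46), and Nanog among the 62, with -1.49 (SE 0.29). The interaction with 24h was called for 46 genes (0.361%), 35 with a higher (0.275%) and 11 with a lower value (0.0864%) at 24h, which became 7 and 11 with RLE normalization. The sort at 9h and the time cannot be told apart in it, and it was called for 2 genes with the class from the thinned count.

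Over the 10 whole-library sums of ES, 9h, 24h, 48h and iXEN, the genes whose log2(CPM + 1) was most like that of Pdgfra among 14338 genes were Bcr, Foxq1, Gata4, Gdpd5 and Gucd1 (Pearson's r of 0.993, 0.992, 0.989, 0.989 and 0.988), and Tmem164, Slc46a3, Sox7 and Pcdh19 were among the next. The sums are pairs of duplicates along 1 course and share their depth, and no p is given. Within the 24h libraries Foxq1, Gata4, Gdpd5 (log2 fold change 0.66, SE 0.13) and Sox7 were higher in positive cells, and Bcr, Gucd1, Tmem164, Slc46a3 and Pcdh19 were not called. Bcr was at 17.5 and 15.2 CPM in positive cells and at 16.8 and 14.4 CPM in negative cells (0.07, SE 0.13).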

How the data were processed

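Single-cell RNA was measured with 10x 3' libraries. The authors aligned reads to mm10 and counted UMIs with SEQC, and deposited counts (whole UMIs per gene and cell) after removing cells with over 20% mitochondrial reads. The depth is given with the results. Cells of at least 5000 UMIs were classed by PDGFRA, thinned to 5000 UMIs (python 3.11.15, numpy 2.4.6) and summed per library and class. Genes passing edgeR's expression filter were fitted over 12 sums of 9h, 24h and 48h with edgeR 4.0.16 in R 4.3.3 (TMM, quasi-likelihood test, library as a block, a class effect per time, 3 residual degrees of freedom, Benjamini-Hochberg adjustment). The classes are paired because both come from the same library. DESeq2 1.42.0 and Scrublet (scanpy 1.11.5) were alternatives.

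The genes named are those of the lists, the calls reaching 50 CPM with the 12 highest and the 12 lowest log2 fold changes (8 of the lowest qualified), and the 5 highest and 5 lowest called interactions with at least 50 CPM. Others (Gdpd5 and the other genes like Pdgfra by correlation) come from the 10 highest correlations. A gene counted in a list and its values are not reported here. Members and lists were chosen with earlier results of these data known. On simulated data of 12727 genes, the test at 24h recovered 39% of genes changed by a log2 fold change of 0.5 and 71% of those changed by 1, with 3 false calls. There a gene counted at an adjusted p under 0.05 alone, without the fold limit and the rule of the same sign. What the full calling rule would recover was not tested.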

Additional observations from a re-analysis of the deposited data

Results flagged for a closer look

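The class difference at 24h differed from that at 48h for these named genes by edgeR's interaction test with Benjamini-Hochberg adjustment, each value being the 24h log2 fold change minus the 48h one. It was 0.97 for Tdgf1, 0.83 for Socs1, 0.83 for Srgn, 0.73 for Fst and 0.72 for F2r. It was -0.58 for Klf4, -0.65 for Fxyd6, -0.81 for S100a13, -0.93 for Ndrg1 and -1.04 for Apela. The calls of Socs1 (3.15), Srgn (0.84), Fst (1.07) and Fxyd6 (-0.55) were lost without the first 24h library, and that of Ndrg1 without the second (-0.67). With the class from the thinned count those of Socs1 (0.47), Srgn (0.65) and S100a13 (-0.81) were lost, and with classes matched on depth those of Srgn (0.44), Fst (0.50) and Fxyd6 (-0.52). DESeq2 kept the calls of 5 of these 10 genes.

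The class difference at 24h differed from that at 9h, where cells had been sorted, by the same test. The value was 0.97 for Hbegf, 0.95 for Sapcd1, 0.88 for Mpzl2, 0.87 for F2r and 0.81 for Glul. It was -0.52 for Tdgf1, -0.67 for Stmn2 and -0.68 for Calcoco2. With the class from the thinned count none of these genes kept its call, and Tdgf1 was at -0.12. With classes matched on depth Tdgf1 and Stmn2 alone of these genes kept it, and with DESeq2 3 of the 8 genes did. The calls of Hbegf, Mpzl2, F2r and Calcoco2 were lost without the first 24h library and that of Tdgf1 without the second (-0.49). Some of these calls were also lost when a 9h library was left out. The sort and the time cannot be told apart in these values.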

How the results depend on the processing

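The 239 genes called at 24h became 98 with the class from the thinned count, 454 without thinning (165 shared), 150 with classes matched on depth (chosen after seeing the data), 71 with DESeq2, 58 at a log2 fold change of at least 1, and 130 to 158 with 1 of the 24h libraries left out: 158 without the first (92 shared) and 130 without the second (111 shared), each leaving 1 library at 24h that is assumed to vary like the others. With another random seed 147 of the 239 genes were shared, although the count was 236.

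Besides those named with the results, calls of Axin2, Krt19, Pth1r, Tfap2c and Tubb3 were lost with the class from the thinned count, and calls of Fgfr2, Krt19, Pth1r, Spp1 and Spry4 with classes matched on depth. Leaving out a 24h library leaves fewer sums in the fit, and a call lost there need not have a smaller value.

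The 48 genes of the interaction with 48h became 25 with the class from the thinned count, 74 when thinned to 10000 UMIs, 86 without thinning, 11 with DESeq2 and 11 at a log2 fold change of at least 1. The 46 genes of the interaction with 9h became 2 with the class from the thinned count, 270 with 2 or more PDGFRA UMIs, 6 with classes matched on depth, 16 without the deepest 5% of cells, 18 with RLE normalization, 4 with DESeq2, 97 without a filter on low counts, 10 at a log2 fold change of at least 1, and 11 to 65 with 1 library left out (23 and 11 without the first and second 9h library, 22 and 65 without the first and second 24h library). In it Stmn2 turned to 0.47 with 2 or more PDGFRA UMIs. The causes were not tested.

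The classes of a library are a replicate block. Without the block edgeR called 0 genes in each of the 3 comparisons (210, 71 and 309 at an unadjusted p under 0.05 for 24h, for the interaction with 48h and for that with 9h). With the replicate number as a block, iXEN against ES gave 3157 genes. The mean share of positive cells, 33.4%, was 14.1% after thinning to 5000 UMIs and 25.2% after thinning to 10000, and 32.3% to 34.6% with 1 library left out. Depth limits the class call, since 1 UMI of PDGFRA separates the classes.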
